A study of Mus musculus with 12 samples.

Results

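The genes of the cornified envelope and of epidermal differentiation were followed in endometrial epithelial organoids, which are cultures grown in a gel from the epithelium that lines the mouse uterus. Members were the genes whose symbol begins with Sprr (small proline-rich proteins) or Lce (late cornified envelope proteins), together with a fixed list of envelope precursors, cross-linking enzymes and other epidermal differentiation genes. This rule found 57 of the 26264 genes in the files, and loricrin appeared under the symbol Lor. Flg was not analysed here. Bulk RNA was sequenced from 12 libraries in 4 groups of 3, which were Esr1 knockout (KO) organoids with estrogen, KO organoids without estrogen, wild-type (WT) organoids with estrogen and WT organoids without estrogen. Esr1 encodes estrogen receptor alpha. The study asked what Esr1 does in uterine epithelial lineage choice and homeostasis. The labels give passage 3 for all organoids, and they do not give the deleted exons, the strain, the age of the donor mice, the estrogen dose or time, or whether replicates came from separate animals. A p-value here thus covers no more than the spread among the libraries of a group, which may be technical. The submitters' treatment note states that neither genotype responded to the hormone.

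The cornified envelope is a sheet of cross-linked protein that forms under the plasma membrane of squamous keratinocytes as they die at the surface of skin, mouth or vagina. Plakins and involucrin are laid down early as a scaffold, and loricrin, Sprr and Lce proteins are then joined to it by transglutaminases. Most of these genes stand side by side in a chromosomal block, the epidermal differentiation complex. The lining of the uterus is a simple columnar epithelium that does not cornify, and in the mouse uterus several Sprr2 genes are known as targets of estrogen.

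Library totals ran from 75654191 to 108665407 counted reads. Esr1 had 16.5, 15.9 and 16.7 counts per 1000000 reads (CPM) in KO without estrogen, against 318, 352 and 253 CPM in WT without estrogen. With estrogen it had 19.3, 20.3 and 19.5 CPM in KO, against 280.2, 330.3 and 344 CPM in WT, so the KO libraries were low in both treatments. The epithelial genes Epcam, Cdh1, Krt7 and Krt18 were present in both genotypes, with group means between 550.3 and 1155 CPM. Hoxa10 and Hoxa11, which mark uterine stroma, had at most 4 reads in any library. CPM values are TMM-normalised, which corrects for a few genes that take up many reads, and a gene is called when its Benjamini-Hochberg adjusted p in edgeR's quasi-likelihood test, over all 16465 genes tested, is under 0.05.

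The cornified envelope genes were far higher in KO organoids than in WT organoids, with or without estrogen, and a member of the family, Sprr2f, went the other way. Summed over all 57 members, the 3 KO libraries without estrogen held 13786, 10581 and 10599 CPM, against 2788, 3203 and 3492 CPM in WT. With estrogen the sums were 15345, 8198 and 11701 CPM in KO, against 3953, 2429 and 2851 CPM in WT. All 6 KO sums lay above all 6 WT sums. In bulk RNA, more cells that express these genes and more RNA per cell cannot be told apart.

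The filter on low counts passed 52 members. Without estrogen 51 of them were called higher in KO, where 37.7% of all tested genes were called higher, and 1 was called lower, where 34.0% were. With estrogen the counts were again 51 higher, against 36.7% of all genes, and 1 lower, against 34.1%. The same direction in both treatments was called for 51 members higher (34.1% of all genes) and 1 lower (30.8% of all genes). In 50 members every KO library lay above every WT library, which 34.0% of all tested genes did, and 0 members lay wholly below, which 31.0% of all genes did. Sprr2f and Tgm3 were the members whose genotypes overlapped. Many members passed the filter through the KO libraries alone, and such members had to differ. Of the 52, only 22 had at least 10 reads in at least 3 WT libraries, and of these 21 were called higher and 1 lower in both treatments. By the same measure 14557 genes were detected in WT, of which 28% were called higher and 34.9% lower in both treatments. The other 30 tested members were below that level in WT, and 15 of them had 0 reads in all 6 WT libraries.

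The median log2 fold change of the 22 members detected in WT was 4.80 without estrogen and 5.29 with estrogen, against -0.10 in each treatment over all genes detected in WT. Over the 52 tested members, 30 of which passed the filter through the KO libraries, it was 9.85 and 9.68, or 8.48 and 8.55 with members near 0 in WT set at a bound. That bound takes 3 reads over a group as the floor, which is 0.0114 CPM in WT without estrogen and 0.0112 CPM in WT with estrogen. Floors and counting intervals cover counting error only, and they treat reads as independent. Each mate of a read pair was counted singly, so both mates of a fragment can be counted. The intervals given below can thus be too narrow and the at-least folds too high. Of the 5 members that failed the filter, Sprr4 had 53 reads over the 12 libraries, Lce6a had 18, Flg2 had 12, and Sprr2a1 and Sprr2a2 had 0. The last 2 share 89.6% and 89.0% of their 150-base windows with each other or with Sprr2a3, and reads that mapped to several places were not counted.

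**Figure D1:**
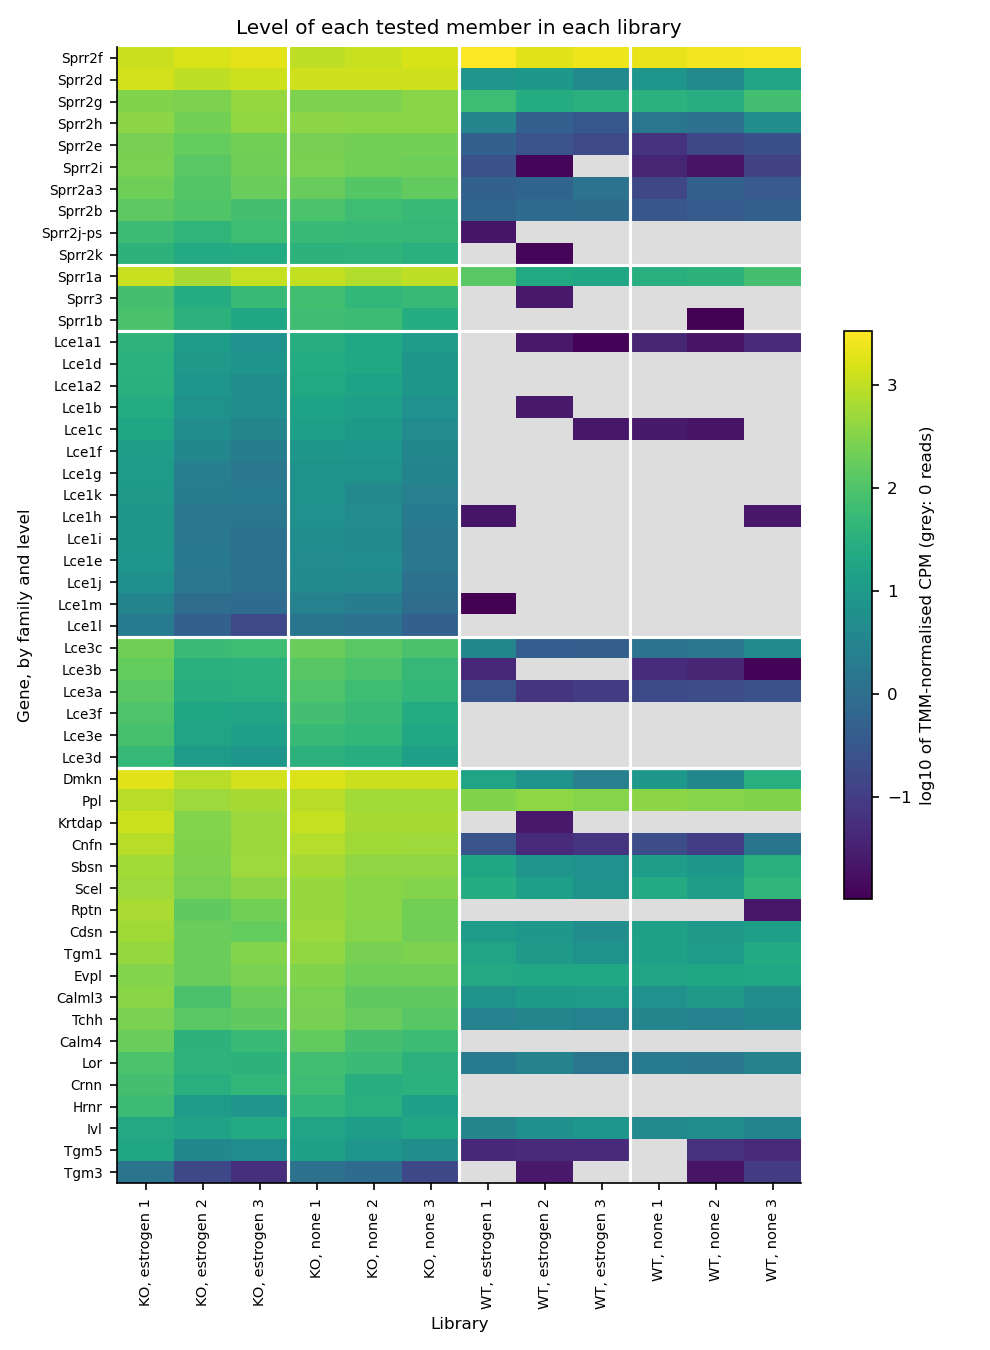
Level of each of the 52 tested members (rows, by family and then by level) in each of the 12 libraries (columns, KO with estrogen, KO without, WT with estrogen and WT without), as the base-10 logarithm of TMM-normalised CPM; grey cells had 0 reads. The KO columns are bright in nearly all rows, Sprr2f in the top row is bright in every column, and the Lce1 rows are grey in most WT cells.

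Sprr2 genes encode short proline-rich proteins that bridge other envelope proteins, and 12 were found, of which 10 passed the filter. Sprr2f, the main Sprr2 gene of the WT organoids, had 963, 1130.4 and 1524 CPM in KO without estrogen, against 2232, 2714 and 2839 CPM in WT without estrogen. The libraries of the genotypes did not overlap there, and Sprr2f fell in KO by 1.11 on the log2 scale (SE 0.25, edgeR adjusted p = 0.0019). In the estrogen-treated groups it had 1210.1, 1639 and 2007 CPM in KO, against 3326, 1893 and 2388 CPM in WT. The highest of these KO libraries stood above the lowest WT library, with a log2 fold change of -0.65 (SE 0.25, edgeR adjusted p = 0.0343). The call with estrogen was lost when libraries were scaled by their size alone (log2 fold change -0.47, adjusted p = 0.0978) and when replicate 1 of WT with estrogen was left out (-0.40, adjusted p = 0.157). It was also lost without replicate 3 of WT with estrogen (-0.69, adjusted p = 0.0524), without replicate 1 of KO with estrogen (-0.48, adjusted p = 0.120) and without replicate 2 of KO with estrogen (-0.66, adjusted p = 0.0679).

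The other 9 tested Sprr2 genes rose in KO in both treatments. Sprr2d had 1313, 1312 and 1343 CPM in KO without estrogen, against 8.10, 4.29 and 17.1 CPM in WT (log2 fold change 7.07, SE 0.51, edgeR adjusted p = 4.6e-07). Under estrogen the gene had 1379, 1009 and 1266 CPM in KO, against 7.66, 8.87 and 4.51 CPM in WT (7.44, SE 0.52, adjusted p = 4.1e-07). Without estrogen the alternative fits gave 6.71 to 7.74, the highest with replicate 3 of WT without estrogen left out. Sprr2d was the steadiest member across the KO libraries, with the highest 1.37 times the lowest. Sprr2h had 358, 342 and 343 CPM in KO without estrogen, against 1.45, 1.13 and 5.44 CPM in WT, and 359.6, 238 and 418 CPM in KO with estrogen, against 3.31, 0.520 and 0.338 CPM in WT. Its log2 fold changes were 7.02 and 7.90 (SE 0.87 and 0.92, edgeR adjusted p = 2.9e-05 and 1.8e-05), and no KO library came near a WT library. They were 8.07 without replicate 3 of WT without estrogen and 9.63 without replicate 1 of WT with estrogen. The lowest values over the alternative fits were 6.65 without and 7.44 with estrogen.

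Sprr2g was the Sprr2 gene with the second highest level in WT and rose least. It had 277, 276 and 356 CPM in KO without estrogen, against 33.5, 27.4 and 75.2 CPM in WT, and 295, 267 and 437 CPM in KO with estrogen, against 64.9, 25.9 and 31.4 CPM in WT. The log2 fold changes were 2.74 (SE 0.44, edgeR adjusted p = 1.9e-04) and 3.03 (SE 0.44, adjusted p = 1.0e-04). Sprr2e and Sprr2i stood at 161 CPM and 127 CPM or more in every KO library and at 0.514 CPM and 0.236 CPM or less in every WT library. Sprr2k and the pseudogene Sprr2j-ps had at most 2 reads over the 3 libraries of any WT group.

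The makeup of the Sprr2 reads therefore differed between the genotypes. Sprr2f held 28.9%, 44.0% and 40.8% of the summed Sprr2 CPM in KO with estrogen and 25.6%, 29.9% and 35.6% in KO without estrogen. In WT it held 97.7%, 98.1% and 98.4% with estrogen and 98.1%, 98.8% and 96.6% without. The rest of the KO total was led by Sprr2d, at 25.7% to 34.9% over the 6 libraries, followed by Sprr2h and Sprr2g with medians of 8.55% and 7.34%. Without Sprr2f, the other Sprr2 genes summed to 2085 to 2971 CPM in the KO libraries and to 33.9 to 98.9 CPM in the WT libraries. The total with Sprr2f differed far less, at 3724 to 4919 CPM in KO and 1929.7 to 3404 CPM in WT.

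**Figure D2:**
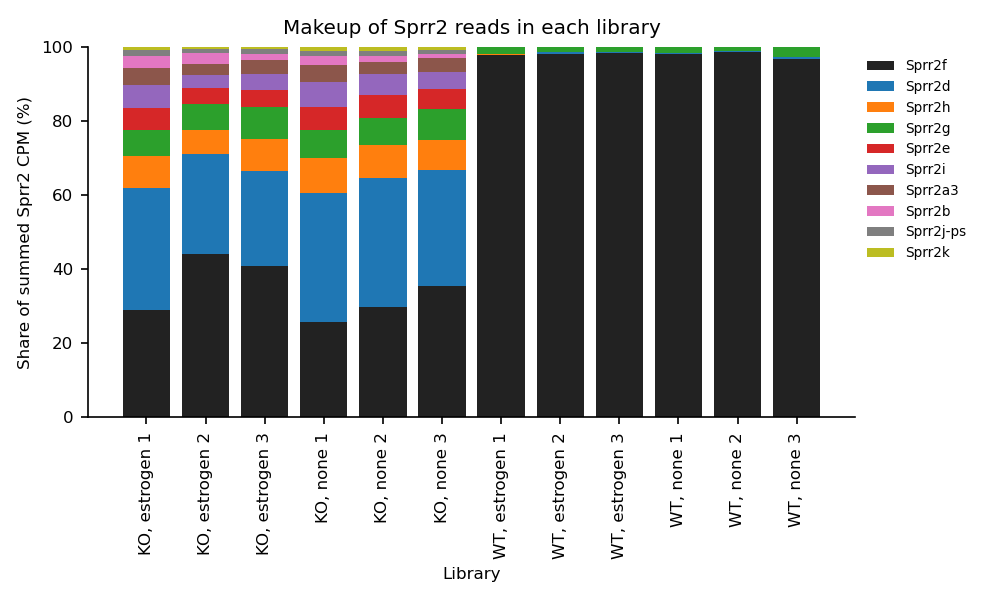
Share of the summed Sprr2 CPM (%) held by each Sprr2 gene in each of the 12 libraries, stacked to 100%. Sprr2f fills 96.6% or more of each WT bar and 44.0% or less of each KO bar, in which Sprr2d is the next block.

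Sprr2f differed in direction from its close paralogs, so the bases before its start are shown beside those of Sprr2d and Sprr2e, with those of Sprr1a and Krtdap, 2 abundant members that rose. The sequences are RefSeq promoters of build GRCm38.p6, 250 bases up to the start and 5′ to 3′ on the gene's strand. Capitals mark a wide form of the AP-1 motif, TGANTCA, as well as the TATA box TATAAA and GGTCA, the core of an estrogen response element. Each was searched on both strands, so that GGTCA on the other strand reads TGACC. Matches of these motifs did not overlap in the members' promoters.
Sprr2f (chr3:92364937-92365186, + strand): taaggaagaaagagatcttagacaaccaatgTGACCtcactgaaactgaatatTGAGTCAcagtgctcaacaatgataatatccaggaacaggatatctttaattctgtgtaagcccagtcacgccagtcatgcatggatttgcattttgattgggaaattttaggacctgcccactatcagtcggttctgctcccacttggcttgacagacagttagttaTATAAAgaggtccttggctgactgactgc
Sprr2d (chr3:92338890-92339139, + strand): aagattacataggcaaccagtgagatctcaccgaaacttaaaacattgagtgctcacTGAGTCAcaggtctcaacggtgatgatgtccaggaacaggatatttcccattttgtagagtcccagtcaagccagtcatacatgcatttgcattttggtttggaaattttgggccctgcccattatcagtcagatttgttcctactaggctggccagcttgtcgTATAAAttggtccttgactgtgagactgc
Sprr2e (chr3:92351893-92352142, + strand): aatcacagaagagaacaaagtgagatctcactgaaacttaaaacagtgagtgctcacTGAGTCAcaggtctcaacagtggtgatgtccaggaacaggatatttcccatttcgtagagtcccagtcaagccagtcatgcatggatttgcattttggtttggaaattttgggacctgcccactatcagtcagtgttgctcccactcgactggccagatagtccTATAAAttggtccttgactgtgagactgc
Sprr1a (chr3:92485882-92486131, - strand): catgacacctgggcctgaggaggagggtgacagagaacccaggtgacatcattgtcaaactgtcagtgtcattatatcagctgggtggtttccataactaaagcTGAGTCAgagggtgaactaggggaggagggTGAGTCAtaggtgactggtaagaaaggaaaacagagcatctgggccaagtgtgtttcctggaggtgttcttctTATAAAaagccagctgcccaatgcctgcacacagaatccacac
Krtdap (chr7:30787655-30787904, + strand): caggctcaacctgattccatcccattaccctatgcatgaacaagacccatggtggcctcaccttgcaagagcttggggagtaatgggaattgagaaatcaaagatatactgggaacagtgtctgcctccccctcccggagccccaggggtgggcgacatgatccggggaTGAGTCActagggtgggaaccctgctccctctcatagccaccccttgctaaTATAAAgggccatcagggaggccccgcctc

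Promoters were found for 51 of the 57 members. AP-1, a dimer of Fos and Jun proteins, binds mainly TGACTCA or TGAGTCA, and the letters searched, TGANTCA, are wider. Of the 51 member promoters, 18 (35.3%) held these letters, against 6.87% of 27025 mouse promoters of the same length. The 18 include 7 Sprr2 promoters, which shared 58.8% to 89.3% of their positions with each other when aligned. Their matches are thus not independent. In Crnn, Flg2, Sbsn, Sprr1b and Rptn the middle base of the match was A or T. Of the 10 Sprr2 promoters found, 7 held both the AP-1 letters, 182 to 198 bases before the start, and TATAAA 29 bases before it. Sprr2f is among the 7, with the AP-1 letters 197 bases before its start. The promoters of Sprr2a1, Sprr2a2 and Sprr2a3 held neither, and none of the 13 Lce1 and 6 Lce3 promoters held the AP-1 letters. TATAAA was in 21 member promoters (41.2%), against 3504 of the 27025.

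The core GGTCA was in 20 member promoters (39.2%), against 34.9% of all, and in 1 of the 10 Sprr2 promoters, that of Sprr2f, 219 bases before the start. The full estrogen response element, in which the core and its reverse complement flank a spacer, was in 0 of the 51, against 0.0629% of all promoters. Other letters searched were those of ETS, KLF and GATA factors, and CCGGAAGT was in 0 member promoters (2.93% of all), CCACACCC in 2 (3.92%, against 3.19% of all) and AGATAA in 5 (9.80%, against 10.3% of all). Aligned over the 250 bases, the promoter of Sprr2f shared 73.3% of its positions with Sprr2e, 72.9% with Sprr2i and 70.0% with Sprr2d, while Sprr2d and Sprr2e shared 89.3%. These are matches of letters, and binding was not measured.

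Outside the Sprr2 group, Sprr1a, Sprr1b and Sprr3 also encode cross-bridging proteins of stratified epithelia. Sprr1a had 1056, 788 and 969 CPM in KO without estrogen, against 31.2, 37.8 and 80.0 CPM in WT (log2 fold change 4.24, SE 0.73, edgeR adjusted p = 3.3e-04). With estrogen it had 1129.7, 625 and 1108 CPM in KO, against 127, 22.8 and 18.9 CPM in WT (4.08, SE 0.72, adjusted p = 4.3e-04). Replicate 1 of WT with estrogen was the highest WT library and still lay below every KO library, and without it the log2 fold change was 5.52. The lowest value with estrogen over the alternative fits was 3.67. Sprr3 had 46.5 to 70.4 CPM in KO without estrogen, against 0 reads in WT, which is at least 4941-fold higher. In estrogen-treated organoids it had 26.0 to 78.4 CPM in KO, against 2 reads over WT, a ratio of 7132 with an exact 95% counting interval of 1974 to 58897. Sprr1b had 13314 reads over KO without estrogen, against 1 read over WT, and 15984 reads over KO with estrogen, against 0 reads over WT.

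The Lce genes, which encode small proteins added to the envelope late in skin, were mostly undetected in WT by the measure above, except Lce3a and Lce3c. Tested members of other families were undetected by it too, namely Krtdap, Calm4, Crnn, Hrnr, Rptn, Sprr1b, Sprr3, Sprr2i, Sprr2j-ps, Sprr2k, Tgm3 and Tgm5. The 14 Lce1 genes summed to 150.2, 119 and 55.6 CPM in KO without estrogen, against 0.0637, 0.0404 and 0.0695 CPM in WT. With estrogen they summed to 219, 56.6 and 39.1 CPM in KO, against 0.0308, 0.0484 and 0.0338 CPM in WT. None of the 14 was detected in WT by the measure above and 9 had 0 reads in all 6 WT libraries, so all passed the filter through KO and had to be called higher. Lce1a1 led with 19.2 ± 8.21 CPM in KO without estrogen, against 0.0349 ± 0.0134 CPM in WT (SD, n = 3 each), and Lce1l was lowest with 1.03 ± 0.464 CPM in KO, against 0 reads in WT (at least 90.1-fold higher).

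The 6 Lce3 genes were higher than the Lce1 genes per length. They summed to 569.6, 411 and 239.6 CPM in KO without estrogen, against 1.50, 1.69 and 4.37 CPM in WT, and to 747, 165 and 164 CPM in KO with estrogen, against 3.69, 0.533 and 0.563 CPM in WT. Lce3c made up most of the WT reads, with 1.27, 1.45 and 4.12 CPM without estrogen and 3.37, 0.460 and 0.473 CPM with estrogen, against 181, 126 and 88.3 CPM and 214, 59.4 and 62.8 CPM in the matching KO libraries. Lce3d, Lce3e and Lce3f had 0 reads in all 6 WT libraries. These 3 genes and Lce3c share between 3.22% and 36.8% of their 150-base windows, so the split of reads among them is uncertain, whereas no Lce1 gene shared such a window with another gene.

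Among the single genes, the scaffold proteins differed least between genotypes. Periplakin Ppl, a plakin that links the envelope to keratin filaments, had 839, 570.3 and 568 CPM in KO without estrogen, against 373, 332 and 295 CPM in WT (log2 fold change 0.98, SE 0.20, edgeR adjusted p = 9.9e-04). With estrogen the values were 829.9, 523 and 631 CPM in KO, against 292, 387 and 335 CPM in WT (0.97, SE 0.20, adjusted p = 0.00113). Ppl was thus already abundant in WT, and its KO libraries all lay above its WT libraries. Its partner envoplakin, Evpl, rose by 3.70 and 3.65 on the log2 scale without and with estrogen (SE 0.20 each). Involucrin, Ivl, an early scaffold protein, had 11.9 to 18.7 CPM in KO without estrogen, against 3.17 to 5.52 CPM in WT, and 15.4 to 24.1 CPM in KO with estrogen, against 3.31 to 8.02 CPM in WT. Its log2 fold changes were 1.88 and 1.81 (SE 0.33 and 0.32, edgeR adjusted p = 3.4e-04 and 4.4e-04), the smallest after Ppl among the members called higher.

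Sciellin, Scel, an envelope precursor, had 466, 344 and 314 CPM in KO without estrogen, against 23.9, 12.5 and 43.2 CPM in WT, and 512, 258 and 374 CPM in KO with estrogen, against 26.1, 12.9 and 6.86 CPM in WT. Its log2 fold changes were 3.82 (SE 0.56, edgeR adjusted p = 9.8e-05) and 4.64 (SE 0.58, adjusted p = 3.2e-05), or 5.27 without replicate 1 of WT with estrogen. The lowest values over the alternative fits were 3.48 without and 4.29 with estrogen. Corneodesmosin, Cdsn, which glues dead keratinocytes together, averaged 342 ± 138 CPM in KO and 12.3 ± 2.17 CPM in WT without estrogen (SD, n = 3 each), and it had 168 to 542 CPM in KO with estrogen, against 5.27 to 10.6 CPM in WT. Loricrin, Lor, the main bulk protein of the envelope in skin, had 72.5, 57.2 and 35.5 CPM in KO without estrogen, against 1.80, 1.63 and 2.90 CPM in WT. With estrogen it had 93.2, 39.0 and 37.9 CPM in KO, against 1.87, 2.98 and 1.51 CPM in WT. Both its differences were called (log2 fold changes 4.71 and 4.74, SE 0.47 each, edgeR adjusted p = 5.2e-06 and 5.4e-06).

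Secreted products of differentiating keratinocytes rose in KO as well. Dermokine, Dmkn, had 1728, 1220.0 and 1179 CPM in KO without estrogen, against 9.06, 3.51 and 28.4 CPM in WT (log2 fold change 6.65, SE 0.92, edgeR adjusted p = 6.7e-05). Estrogen-treated organoids had 1870.3, 829.8 and 1409 CPM in KO, against 16.9, 6.79 and 2.52 CPM in WT (7.29, SE 0.95, adjusted p = 4.4e-05). The differences were 7.78 without replicate 3 of WT without estrogen and 8.20 without replicate 1 of WT with estrogen, the highest WT library of each treatment. The lowest values over the alternative fits were 6.20 without and 6.85 with estrogen. Suprabasin, Sbsn, whose gene lies beside Dmkn, had 608, 401 and 411 CPM in KO without estrogen, against 12.0, 9.05 and 29.6 CPM in WT, and 578, 289.6 and 524 CPM in KO with estrogen, against 19.0, 7.81 and 6.18 CPM in WT. It was called in both treatments (log2 fold changes 4.81 and 5.39, SE 0.58 and 0.60, edgeR adjusted p = 2.4e-05 and 1.3e-05), with 5.49 and 6.05 when the same libraries were left out. Its lowest values over the alternative fits were 4.51 without and 5.11 with estrogen.

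Krtdap, a secreted marker of suprabasal keratinocytes in the same gene block as Dmkn and Sbsn, separated the genotypes almost completely. It had 1109.6, 630.2 and 617 CPM in KO without estrogen, against 0 reads in each WT library, at least 68521-fold higher. Under estrogen its libraries had 1257, 308 and 499 CPM in KO, against 2 reads over WT, both in replicate 2 (a ratio of 94047 with an exact 95% counting interval of 26035 to 776583). Cornifelin, Cnfn, an envelope component, had 812, 533 and 523 CPM in KO without estrogen, against 0.204, 0.101 and 1.41 CPM in WT, and 839.6, 297 and 481 CPM in KO with estrogen, against 0.278, 0.0484 and 0.0676 CPM in WT. Cnfn was low in WT but had reads in every WT library, with only 4 and 6 reads in replicates 2 and 3 with estrogen. Its log2 fold changes were 10.10 and 11.93 (SE 0.90 and 1.00, edgeR adjusted p = 2.2e-06 and 1.5e-06). They were 12.03 without replicate 3 of WT without estrogen and 13.14 without replicate 1 of WT with estrogen. The lowest values over the alternative fits were 9.56 without and 11.46 with estrogen.

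The genes of the fused-type S100 proteins, which add to the envelope, were largely undetected in WT. Repetin, Rptn, had 473, 346 and 227 CPM in KO without estrogen, against 2 reads over WT, a ratio of 45633 with an exact 95% counting interval of 12632 to 376812. With estrogen it had 671, 151 and 221 CPM in KO, against 0 reads in WT, at least 31800-fold higher. Hornerin, Hrnr, and cornulin, Crnn, had 0 reads in all 6 WT libraries and 28.7 ± 15.4 and 41.5 ± 19.3 CPM in KO without estrogen (SD, n = 3). Trichohyalin, Tchh, was the exception of this class, with 3.16 ± 0.325 CPM in WT without estrogen beside 182 ± 60.8 CPM in KO (SD, n = 3 each). Flg2 had 6 reads over each KO group, against 0 reads over each WT group, and was not tested.

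Of the 3 transglutaminases among the members, which cross-link the envelope, Tgm1 had the highest level per length in KO. Its libraries had 426, 251 and 267 CPM in KO without estrogen, against 14.7, 10.7 and 23.5 CPM in WT, and 435, 188 and 317 CPM in KO with estrogen, against 17.2, 9.66 and 6.58 CPM in WT (log2 fold changes 4.28 and 4.81, SE 0.47 and 0.48, edgeR adjusted p = 1.1e-05 and 6.0e-06). Tgm5 had 9.38 ± 4.67 CPM in KO without estrogen, against 0.0357 ± 0.0317 CPM in WT (SD, n = 3 each). Tgm3 was barely present, with 1.20, 0.868 and 0.158 CPM in KO without estrogen, against 0, 0.0202 and 0.0927 CPM in WT, and 1.34, 0.162 and 0.0570 CPM in KO with estrogen, against 0, 0.0242 and 0 CPM in WT. Its call (edgeR adjusted p = 0.0156 and 0.0093) was lost without replicate 1 of WT without estrogen (log2 fold change 3.72, adjusted p = 0.0515), without replicate 2 of that group (3.92, adjusted p = 0.0553) and without replicate 1 of KO with estrogen (3.65, adjusted p = 0.0534), where all libraries gave 4.24 without and 5.89 with estrogen. Without replicate 3 of WT without estrogen and replicate 2 of WT with estrogen, the WT libraries highest for Tgm3, those values were 5.90 and 8.63. The calmodulin-like genes Calm4 and Calml3, which encode calcium sensors of keratinocytes, also rose. Calm4 had 159.5, 80.2 and 62.0 CPM in KO without estrogen, against 0 reads in WT (at least 8739-fold higher), and Calml3 averaged 186 ± 60.5 CPM in KO and 7.12 ± 2.25 CPM in WT there (SD, n = 3 each).

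Per length of exon, the order of the members also differed. As CPM per kilobase, with exon lengths from GENCODE M21 for all 57 members, KO without estrogen was led by Sprr2f at 1980.2, Sprr2d at 1942, Krtdap at 1672, Sprr1a at 1163 and Cnfn at 866. WT without estrogen was led by Sprr2f at 4261, with Sprr2g next at 69.7, Sprr1a at 61.6 and Ppl at 53.6 CPM per kilobase. Sprr2f was first in both, although KO was the lower of the genotypes for it.

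Most members lie in the epidermal differentiation complex on mouse chromosome 3. In the RefSeq gene order of build GRCm38, 72 genes of the files lie between its S100 genes at either end, and 60 of them were tested. Of these, 58 were called higher in KO in both treatments and 1, Sprr2f, was called lower, but many passed the filter through the KO libraries alone. Of the 30 detected in WT, 28 were called higher and 1 lower. Lelp1 was not called, with 0.0880 ± 0.0264 CPM in KO and 0.179 ± 0.127 CPM in WT without estrogen (SD, n = 3 each). Of its genes detected in WT that are not members, 16 of 17 were called higher. Among the 29 genes detected in WT of the 30 tested before the block, 9 were called higher and 11 lower, and among the 28 of the 30 after it, 9 were called higher and 7 lower, where 28% and 34.9% of all genes detected in WT were. Outside the block, all 9 members detected in WT were called higher.

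**Figure D3:**
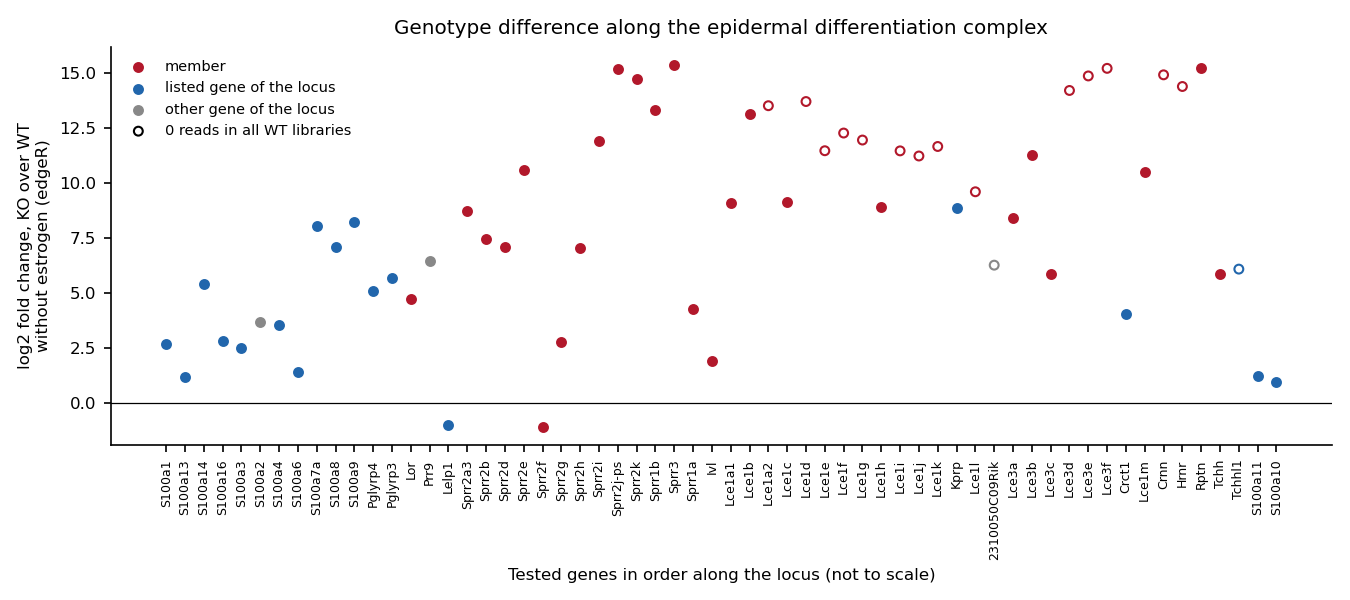
Log2 fold change of KO over WT without estrogen (edgeR) for the 60 tested genes of the epidermal differentiation complex, in their order along the locus and not to scale; open symbols are genes with 0 reads in all WT libraries, whose fitted values are no bounds. The members Sprr3, Sprr2j-ps, Sprr2k, Lce1b and Lce1m also had 0 reads in WT without estrogen. Their symbols are filled because of reads in WT with estrogen, and their fitted values are no bounds either. Sprr2f and Lelp1 are the points below 0.

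The S100 genes and other non-members of the block included S100a11, a calcium-binding protein of many epithelia, with 1391 ± 177 CPM in KO and 598 ± 128 CPM in WT without estrogen. S100a14 averaged 768 ± 71.4 CPM in KO and 18.3 ± 15.9 CPM in WT, Crct1 708 ± 123 CPM in KO and 43.6 ± 38.3 CPM in WT, and S100a9, part of the antimicrobial protein calprotectin, 721 ± 203 CPM in KO and 2.45 ± 0.776 CPM in WT (SD, n = 3 each). All 4 were called higher in both treatments.

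Genes that work with the envelope were read from lists chosen with earlier results of these data known, and list counts stand beside the 34.1% of all tested genes called higher and 30.8% called lower in both treatments, or beside 28% and 34.9% where only genes detected in WT are counted. All 11 tested anchors of the envelope, which are desmosomal and membrane proteins, were called higher in both treatments, as were all 7 of those detected in WT. Among them were desmoplakin Dsp at 1311 ± 367 CPM in KO and 231 ± 18.2 CPM in WT without estrogen, and plakophilin Pkp1 at 629 ± 159 CPM in KO and 3.84 ± 3.35 CPM in WT. Plakoglobin Jup differed least of the 4 most abundant, at 489.6 ± 77.8 CPM in KO and 304 ± 17.1 CPM in WT, while Anxa1 stood at 1567 ± 253 CPM in KO and 228 ± 59.7 CPM in WT (SD, n = 3 each). The keratins of suprabasal and stressed stratified epithelium were called higher in 9 of 11 and in 6 of the 8 detected in WT, and 0 were called lower. Krt6b averaged 2171 ± 703 CPM in KO and 69.7 ± 28.4 CPM in WT without estrogen, while Krt16, Krt13 and Krt6a averaged 2107 ± 559.7, 1277 ± 393 and 1361 ± 448 CPM in KO and at most 1.45 CPM in WT.

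Enzymes that cross-link or process the envelope included genes called in either direction. Of 15 tested, 8 were called higher and 4 lower in both treatments (34.1% and 30.8% of all tested genes), with 3 higher and 4 lower among the 10 detected in WT, shares near those of all genes detected in WT. The 4 that fell were those with the highest mean CPM over all libraries. Tgm2, the tissue transglutaminase, had 381 ± 71.3 CPM in KO and 4652 ± 787 CPM in WT without estrogen, and Padi1, which converts arginine to citrulline in proteins, had 56.4 ± 16.6 CPM in KO and 925 ± 172 CPM in WT. The proteases St14 and Furin had 363 ± 18.7 and 140.0 ± 2.67 CPM in KO, against 541 ± 20.9 and 627 ± 27.1 CPM in WT (SD, n = 3 each). Tgm1 and Tgm2 thus differed in opposite directions, with log2 fold changes of 4.28 and -3.61 without estrogen.

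Regulators of cornification were called higher in 15 of 22 and lower in 2, against 34.1% and 30.8% of all tested genes, and higher in 12 and lower in 2 of the 19 detected in WT. Ehf, an epithelial ETS factor, rose, at 457 ± 46.0 CPM in KO without estrogen, against 160.3 ± 20.5 CPM in WT (SD, n = 3 each). Elf3 (282 ± 42.9 CPM in KO and 229 ± 41.1 CPM in WT) and Junb, an AP-1 subunit (235 ± 27.5 CPM in KO and 184 ± 14.1 CPM in WT), were not called in both treatments. The 2 that fell, named after their values were seen, were Klf4, a skin barrier factor, with 76.1 ± 13.8 CPM in KO and 137 ± 8.67 CPM in WT, and Cebpb, with 55.1 ± 6.65 CPM in KO and 78.7 ± 6.77 CPM in WT (SD, n = 3 each).

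Markers of other cell types were counted in the same way. In both treatments 34.1% of all tested genes were called higher and 30.8% lower. Among all genes detected in WT these shares were 28% and 34.9%. The part of these markers in the differences above was not tested. Basal cell markers were called higher in 8 of 10. Of the 6 detected in WT, 4 were called higher and 1 lower. Their summed level was 5313 to 12465 CPM in KO and 1343 to 1692 CPM in WT. Most of the WT sum was the integrin Itga6, which was called lower (367 ± 83.9 CPM in KO and 1427 ± 26.7 CPM in WT without estrogen), whereas the basal keratins Krt5 and Krt14 were at 5005 ± 1671 and 2081 ± 495 CPM in KO and at 0.0631 ± 0.0516 and 0.0111 ± 0.0116 CPM in WT (SD, n = 3 each). Ciliated cell markers were called higher in all 8, with sums of 710.3 to 1357 CPM in KO and 0.741 to 1.39 CPM in WT. Only 2 of the 8 were detected in WT, and the others passed the filter through the KO libraries and had to differ. Of 10 simple epithelial markers, 1 was called higher and 3 lower, a share of lower calls near that of all genes, with sums of 4067 to 5222 CPM in KO and 4732 to 5779 CPM in WT. Immune markers were called higher in 1 of 5 and lower in 3, and lower in all 3 of those detected in WT. Their sums were 101 to 188 CPM in KO and 255 to 474 CPM in WT. These sums were mostly Cd68 (111 ± 11.3 CPM in KO and 282 ± 77.7 CPM in WT without estrogen). Csf1r had 0.309 ± 0.241 CPM in KO and 31.3 ± 10.1 CPM in WT there. Ptprc, which marks all leukocytes, had 0 reads in KO and 6.41 ± 1.14 CPM in WT without estrogen. With estrogen Ptprc had 0.0121 ± 0.0105 CPM in KO and 5.46 ± 1.96 CPM in WT. Lyz2, the 1 called higher, had 1.37 ± 0.887 CPM in KO and 0.184 ± 0.159 CPM in WT without estrogen (SD, n = 3 each). Stromal markers were called higher in 1 of 6, with sums of 6.63 to 10.8 CPM in KO and 2.53 to 5.21 CPM in WT. The KO sum was mostly Vim, the 1 called higher (6.73 ± 0.952 CPM in KO and 0.122 ± 0.0546 CPM in WT without estrogen, SD, n = 3 each). Means of Col1a1 (0.284 CPM in KO and 0.682 CPM in WT there) and Col3a1 (0.278 and 0.620 CPM) were lower in KO. That of Pdgfra was higher (1.80 and 1.39 CPM), and these genes were not called. The median log2 fold change of the list was -1.20 without estrogen and -2.03 with it.

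The KO libraries were not alike in this family. Replicate 1 was the highest KO library in both treatments for 44 of the 52 tested members. The share of all tested genes with this pattern was not counted. The KO libraries numbered 1 also deviated together over all tested genes, with a correlation of 0.57. The ratio of the highest to the lowest of the 6 KO libraries had a median of 3.74 over the members and ran from 1.37 for Sprr2d to 23.6 for Tgm3. It had a median of 5.66 in Lce1, 5.67 in Lce3, 3.02 in Sprr1a, Sprr1b and Sprr3, 2.83 in the genes outside the Sprr and Lce families and 1.69 in Sprr2. Sprr2f ran the other way, lowest in replicate 1 and highest in replicate 3 of each KO group. Replicate 1 of each KO group also had the highest sums of basal markers (12465 CPM with estrogen and 12084 CPM without) and of suprabasal keratins (13284 and 11199 CPM), and the lowest sums of ciliated markers (710.3 and 831 CPM). Their part in the spread was not tested. With both these libraries left out, 51 members were called higher and 1 lower without estrogen, and 50 higher and 0 lower with estrogen.

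**Figure D4:**
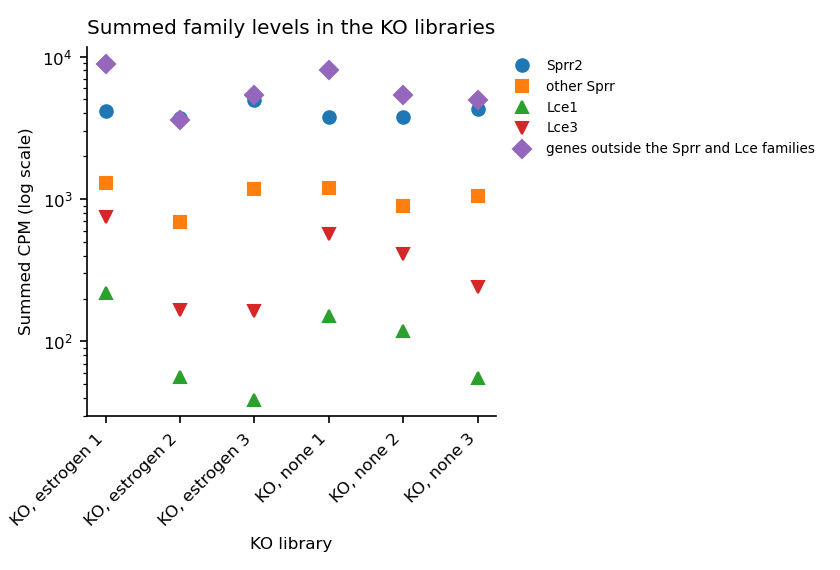
Summed CPM (log scale) of the Sprr2, other Sprr, Lce1 and Lce3 genes and of the members outside these families in each of the 6 KO libraries. Lce1 ranges from 39.1 to 219 CPM and Lce3 from 164 to 747 CPM, with replicate 1 highest in both treatments, while Sprr2 stays between 3724 and 4919 CPM.

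The WT libraries differed as well at their low levels. Of the 22 members detected in WT, 17 were highest in replicate 3 among the libraries without estrogen and 14 were highest in replicate 1 among those with estrogen. The shares of all genes detected in WT that were highest in these libraries were not counted. The summed non-member genes of the epidermal differentiation complex were highest in the same libraries, at 1409 CPM against 802 and 938 CPM without estrogen and 1197 CPM against 802 and 916 CPM with estrogen. The part of these libraries in the WT levels was not tested.

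Estrogen gave no called difference in the cornified envelope genes of either genotype in the fit of the 4 groups. In KO, 0 of the 52 tested members and 0% of all genes were called by edgeR, with 1 member at an unadjusted p under 0.05, and DESeq2 called 0 members among 19 genes higher and 1 lower. In WT, edgeR called 0 members and 0% of all genes, with 3 members at an unadjusted p under 0.05, and DESeq2 called 0 members among 59 genes higher and 4 lower. The interaction of genotype and estrogen was called for 0 members and 0% of all genes by edgeR, with 1 member at an unadjusted p under 0.05, and DESeq2 called 0 members among 5 genes higher and 17 lower.

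The members below that unadjusted level were all Sprr2 genes. Sprr2b had 139, 103 and 79.1 CPM in KO with estrogen, against 90.1, 64.9 and 52.7 CPM in KO without (log2 fold change 0.63, SE 0.24, edgeR adjusted p = 1). In WT it had 0.596, 0.847 and 0.913 CPM with estrogen, against 0.306, 0.384 and 0.510 CPM without (0.96, SE 0.34, adjusted p = 0.838), and it was called there with the replicate number as a block within genotype (0.98, adjusted p = 0.0406), where same-numbered WT libraries did not deviate together. The treatments overlapped in KO and did not overlap in WT. In KO each estrogen library still exceeded the untreated library of its number, as was also so for Crnn, Ivl and Sprr2f. Sprr2a3 had 0.535, 0.605 and 1.28 CPM in WT with estrogen, against 0.153, 0.526 and 0.348 CPM in WT without (1.20, SE 0.47, adjusted p = 0.849). It and Sprr2b were the 2 of 52 members whose WT libraries with estrogen all lay above those without, which 5.00% of all genes did, and 0 lay wholly below, which 3.47% did. In KO, 0 members lay wholly above (3.43% of all genes) or wholly below (3.47%).

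Sprr2e had 0.514, 0.266 and 0.169 CPM in WT with estrogen, against 0.0637, 0.162 and 0.220 CPM without, and 245, 161 and 220.3 CPM in KO with estrogen, against 240.4, 232 and 231 CPM in KO without. Its interaction had a log2 fold change of -1.25 (SE 0.52), an unadjusted edgeR p of 0.0351 and an edgeR adjusted p of 0.974. The WT libraries held 5 to 50 reads of Sprr2e. Leaving out 1 library gave an interaction of -1.61 to -0.68, the last without replicate 1 of WT with estrogen. Sprr2f, the abundant Sprr2 gene of WT, had a log2 fold change with estrogen of 0.42 in KO (SE 0.25, adjusted p = 1) and of -0.03 in WT (SE 0.24, adjusted p = 1).

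**Figure D5:**
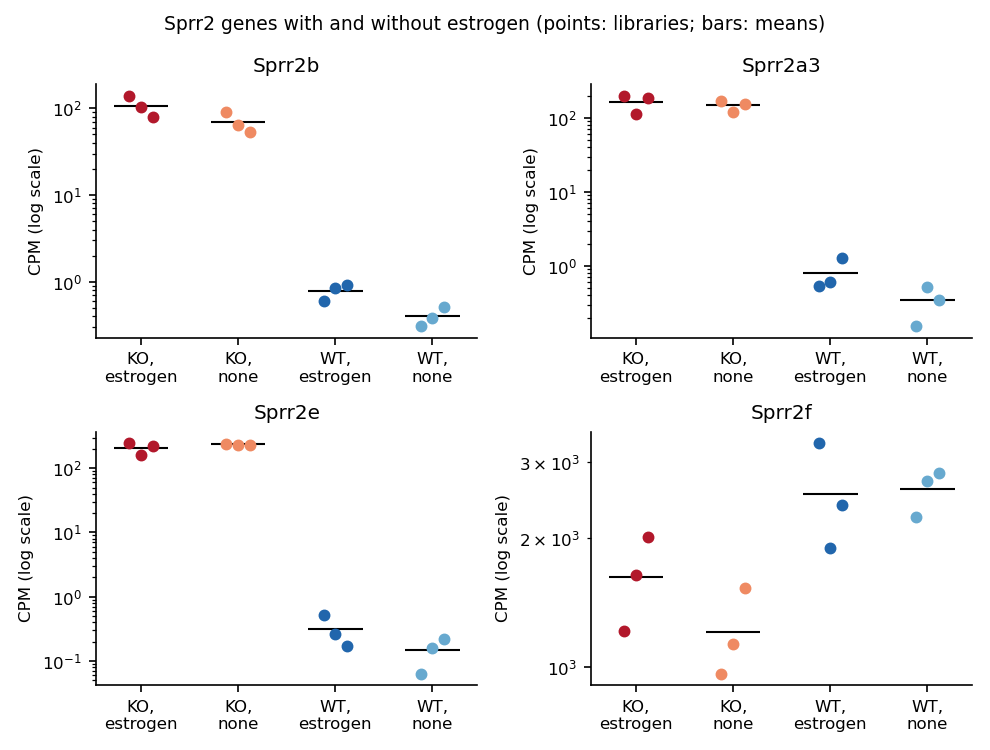
CPM (log scale) of Sprr2b, Sprr2a3, Sprr2e and Sprr2f in each library of the 4 groups, with KO with estrogen at the left and WT without estrogen at the right; points are libraries and bars are group means (n = 3 each). The genotypes stand far apart for the first 3 genes, and for Sprr2f the KO points lie mostly below the WT points.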

How the data were processed

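Bulk RNA of 12 libraries (4 groups of 3) was sequenced by the submitters as read pairs of 150 bases, per the labels' protocols. The deposited files hold raw counts per gene, with a file for each library. Exon reads were summed by gene symbol with featureCounts 2.0.0, per the file headers, while the submitters' processing notes name 2.0.3 and list Trim Galore 0.6.6, FastQC 0.11.7, STAR 2.7.10b and build GRCm39. The command in the headers counted each mate singly, ignored strand and left out reads that mapped to several places or overlapped several genes, so levels of near-identical paralogs are uncertain.

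Genes were filtered with filterByExpr (minimum count 10, minimum total 15), scaled by TMM and fitted in edgeR 4.0.16 (R 4.3.3) by a robust quasi-likelihood model in which the 4 groups shared a spread. Tests were two-sided, adjusted by Benjamini-Hochberg over 16465 genes at 0.05. CPM is per 1000000 reads, errors of levels are SD, and each SE is the log2 fold change divided by the root of F. The test was run on simulated data with a single spread for all genes and no gene silent in either genotype alone. That run does not cover members near 0 in WT or with a wide spread among KO libraries. DESeq2 1.42.0, other scalings and filters, fits of the compared groups alone, a replicate block and leaving out each library were the alternatives.

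The members and the 10 gene lists were chosen with earlier results of these data known. Every-library values are given for the 12 members with the highest mean CPM and those called lower, and up to 4 genes of each list are named by mean CPM, less a gene that is not reported here. Others shown in full were chosen after their values were seen. Folds against a group at 0 use a floor of 3 reads over the group, and with 1 to 3 reads an exact 95% interval is given. Both take the mates of a pair as independent reads, which they are not. Libraries of the same number deviated together in KO (correlations across genes of 0.57, 0.50 and 0.41), so by the rule used here the numbers pair the KO libraries. In WT the correlations were -0.16, -0.16 and -0.39. Libraries of a group differed beyond counting error (chi-square over its degrees of freedom between 46.5 and 305). Windows of 150 bases and exon lengths came from GENCODE M21, and promoters and gene order from RefSeq GRCm38, since no GRCm39 annotation was used here.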

Additional observations from a re-analysis of the deposited data

How the results depend on the processing

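Of 2077 refitted log2 fold changes of members between genotypes, 0 reversed and 11 did not pass the threshold, all of Sprr2f with estrogen or of Tgm3. The number of members called lower in KO with estrogen, and in both treatments, was 1 and went to 0 with scaling by library size alone, with only the compared groups in the fit (Sprr2f log2 fold change -0.64, edgeR adjusted p = 0.0645) and with both KO libraries numbered 1 left out (-0.48, adjusted p = 0.108), the last chosen after seeing the data. Leaving out 1 library gave 0 to 1 for both. The cause was not tested. Tgm3 with estrogen also lost its call without both KO libraries numbered 1 (adjusted p = 0.0574). Leaving out 1 library gave 50 to 52 members called higher without estrogen and 51 to 52 with estrogen. The median log2 fold change of all genes moved by 0.23 without estrogen and 0.19 with it when library sizes alone were used.

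With the replicate number as a block, 51 members were again called higher and 1 lower in each treatment. With the replicate block within genotype, 0 members were called for estrogen in KO and 1 in WT, Sprr2b (log2 fold change 0.98, adjusted p = 0.0406), where the numbers do not pair the libraries by the check used. It changed no other call of a member. Estrogen in WT called up to 45 genes higher when 1 library was left out, and 0 members. The log2 fold change of Sprr2f with estrogen in WT, which was not called, ran from -0.28 to 0.14 when 1 library was left out. With 3 libraries a group, members at a few reads in WT carry folds set by counting error, and splits among Lce3 and Sprr2a paralogs are uncertain.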
